A study of Ovis aries with 8 samples.

Results

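Transferrin and 9 other genes of iron carriage, uptake, storage, export and hepcidin control were followed in the liver of 8 lambs (Ovis aries). The 10 genes were the rows of the deposited table whose symbol was TF, HPX, CP, TFR2, TFRC, FTH1, FTL, SLC40A1, HAMP or BMP6, out of 27729 rows, and each symbol matched 1 row. They were chosen with the difference between RES and ADL livers already known, selected on the lower TF in the authors' comparison, so their differences are given as a description and carry no test. Liver messenger RNA was sequenced from 4 lambs of the group named RES and 4 of the group named ADL. The labels do not spell these names out; the title of the study concerns feed restriction of suckling lambs that were fattened afterwards. All 8 lambs carried a slaughter weight of 27 kg in their labels, and no other treatment, breed, sex or age was used here. Every library came from its own lamb, and the SDs below therefore describe variation among animals.

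Iron travels in plasma bound to transferrin, a protein that hepatocytes secrete, and enters cells when loaded transferrin binds a transferrin receptor. Inside the cell it is held in ferritin shells built of heavy and light chains, and it leaves through ferroportin, the product of SLC40A1. Hepatocytes also make hepcidin, the hormone encoded by HAMP, which makes ferroportin disappear from the cell surface and so lowers the release of iron into blood. Known inputs to hepcidin transcription are bone morphogenetic proteins acting through SMAD factors, transferrin receptor 2, and inflammatory cytokines acting through STAT3.

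Expression is given as TPM, a share of all transcripts corrected for gene length, so levels can be set side by side between genes. Gene-assigned reads numbered 14514084 to 16182407 per lamb. TF rested on 207861 to 349482 reads in a lamb, HAMP on 42 to 957, and BMP6 on 14 to 30. By mean level over the 8 lambs the order was TF, HPX, FTL, CP, FTH1, HAMP, SLC40A1, TFR2, TFRC and BMP6. The steps from TF to HPX, HPX to FTL, FTH1 to HAMP, SLC40A1 to TFR2 and TFRC to BMP6 held in all 8 lambs. FTL exceeded CP in 5 lambs, CP exceeded FTH1 in 6, HAMP exceeded SLC40A1 in 5 and TFR2 exceeded TFRC in 4, so those neighbours were not separated beyond their spread. FTL and FTH1 in this order are the named rows alone. Summed over all rows of its chain, ferritin light chain exceeded HPX in RES lamb 1, ADL lamb 1 and ADL lamb 3 but not in the other lambs. The heavy chain sum exceeded CP in every lamb.

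**Figure D1:**
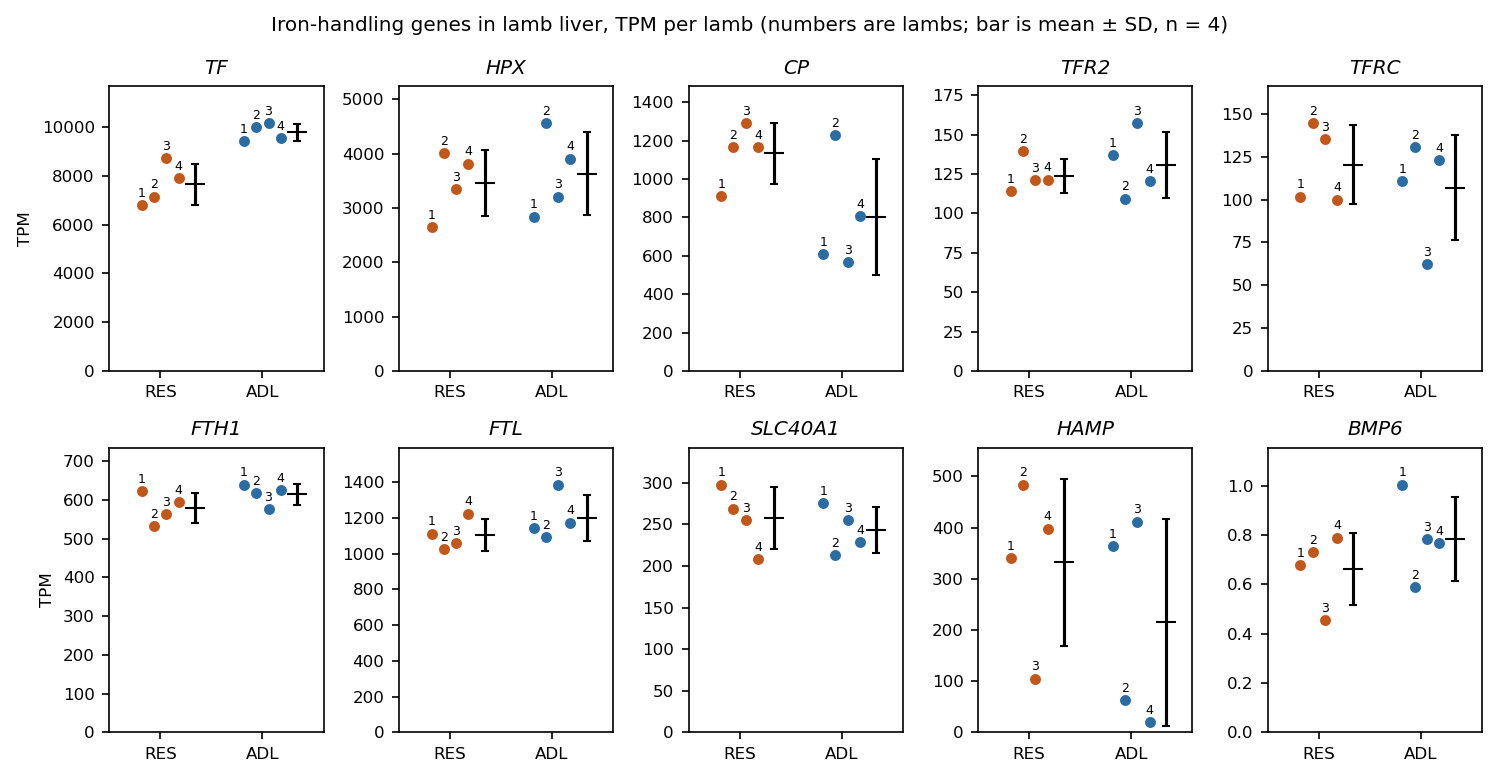
TPM of each of the 10 genes (linear axes from 0) in RES lambs 1 to 4 and ADL lambs 1 to 4, with the mean ± SD of each group of 4 lambs. TF is the gene whose 2 groups do not overlap, with RES lambs at 6803 to 8712 TPM and ADL lambs at 9427 to 10154 TPM, and HAMP has the widest spread, from 20.5 to 484 TPM.

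Transferrin messenger RNA was lower in RES livers. TF stood at 6803, 7145, 8712 and 7911 TPM in RES lambs 1 to 4, against 9427, 9989, 10154 and 9530 TPM in ADL lambs 1 to 4. Every RES lamb lay below every ADL lamb, and RES lambs 1 and 2 lay lowest. TF averaged 7643 ± 850 TPM in RES lambs and 9775 ± 351 TPM in ADL lambs (SD, n = 4 each), a difference of -0.36 ± 0.12 on the log2(TPM + 1) scale (RES minus ADL, limma standard error). TF ranked from 8th to 15th of all genes by TPM in every lamb. In bulk tissue, fewer cells of a type and less RNA per cell cannot be told apart.

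This difference is the one that led to the choice of the genes: the authors' deposited table gives TF a shrunken log2 fold change of -0.42 ± 0.10 (standard error) with a DESeq2 adjusted p of 0.0123. That table places 13 of the 5627 genes with an adjusted p, or 0.231%, under 0.05, 8 of them (0.142% of the genes) lower in RES lambs, and TF is among those 8. For the other 8 genes with an adjusted p in the authors' deposited table it lay between 0.295 and 0.978, and BMP6 has none there. In the limma fit over the 13437 genes that averaged 1 TPM or more, 0.00% passed an adjusted p of 0.05, and the smallest adjusted p of any gene was 0.395; 1 gene passed without ADL lamb 1. At an unadjusted p under 0.05, limma gave 1594 genes, or 11.9%, of which 1393 (10.4%) were higher and 201 (1.50%) lower in RES lambs, and 935 genes without ADL lamb 3. Of the 9 iron genes tested, 2 lay under that unadjusted threshold, TF lower and CP higher, and nothing is read from that count because the same contrast chose the genes. The median of all tested genes was 0.09 on the log2 scale (RES minus ADL). With TPM divided by size factors (a scaling that sets the typical gene equal between lambs) that median was 0.0056, and 7.65% of genes lay under an unadjusted p of 0.05, 3.40% higher and 4.25% lower in RES lambs. On that scale TF and FTH1, both lower, were the 2 iron genes under the unadjusted threshold.

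On the size-factor scale TF differed by -0.46 (log2, RES minus ADL), and the groups again did not overlap, at 6489 to 8500 in RES lambs and 9644 to 10812 in ADL lambs, a pattern that 2.41% of all tested genes showed on that scale. RES and ADL lambs did not overlap in TPM for 7.39% of all tested genes, with 0.781% of them lower in RES lambs. Albumin, the main secreted product of hepatocytes, moved in the same direction as TF, at 94305 to 133797 TPM in RES lambs and 131995 to 147825 TPM in ADL lambs. The ratio of TF to albumin was 0.0578 to 0.0758 in RES lambs and 0.0638 to 0.0757 in ADL lambs, so on this ratio the groups overlapped, with a log2 difference of -0.12 ± 0.11 (SE). Over the summed TPM of 9 hepatocyte marker genes the TF ratio was 0.0423 to 0.0515 in RES lambs and 0.0473 to 0.0580 in ADL lambs, a log2 difference of -0.19 ± 0.09 (SE). Albumin is among those 9 genes and makes up most of their sum in every lamb, so this ratio is not independent of the ratio to albumin. The part of the albumin level in the TF difference was not tested.

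The TF row lies on chromosome 1 from 253430521 to 253512980, on the minus strand, in the coordinates of the deposited table, for which none of the sources used here names the build. The table lists SRPRB, the name of a receptor subunit for the signal recognition particle, as an alias of that row, which has 24 exons and a length of 4099 bases. Reads of the 2 names therefore cannot be told apart. The next gene of the transferrin family in the table is LOC101117129, described there as inhibitor of carbonic anhydrase-like, on the same strand of chromosome 1 from 253539511 to 253584557. It stood at 606, 695, 952 and 645 TPM in RES lambs 1 to 4 and at 904, 1059, 738 and 724 TPM in ADL lambs 1 to 4. The groups overlapped because RES lamb 3 lay high, and the log2 difference was -0.25 ± 0.17.

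Acute phase genes, which the liver turns up in inflammation, varied widely among lambs in both groups. Haptoglobin (LOC101102413) was at 372 to 4179 TPM in RES lambs and 17.5 to 1745 TPM in ADL lambs. Serum amyloid A (LOC101120204) was at 7146, 22407, 389 and 351 TPM in RES lambs 1 to 4 and at 36.6, 242, 62.5 and 412 TPM in ADL lambs 1 to 4. RES lambs 1 and 2, the lambs with the lowest TF, thus stood far above the other 6 lambs. Orosomucoid (ORM1), another acute phase protein, was at 361, 2006, 133 and 13.5 TPM in RES lambs 1 to 4 and at 3.46 to 52.3 TPM in ADL lambs. C-reactive protein (CRP) was at 2260 to 3234 TPM in RES lambs and 1708 to 2416 TPM in ADL lambs. All 10 acute phase genes that were found had a positive log2 difference (RES minus ADL). Their median was 0.38, beside 0.09 for all tested genes, which also leaned higher in RES lambs. Over size factors 9 of the 10 kept that sign, with a median of 0.27 beside 0.0056 for all tested genes. The acute phase genes were named after their values were seen, so these signs are a description. The summed TPM of the 10 was 35361, 69160, 51353 and 47186 in RES lambs 1 to 4 and 31893 to 40667 in ADL lambs. RES lamb 1, high in serum amyloid A, was thus the lowest RES lamb in this sum and in CRP. Without RES lambs 1 and 2, which leaves 2 RES lambs, the TF difference was -0.23 ± 0.13, and both lay below the lowest ADL lamb. The part of the acute phase in the TF difference was not tested.

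**Figure D2:**
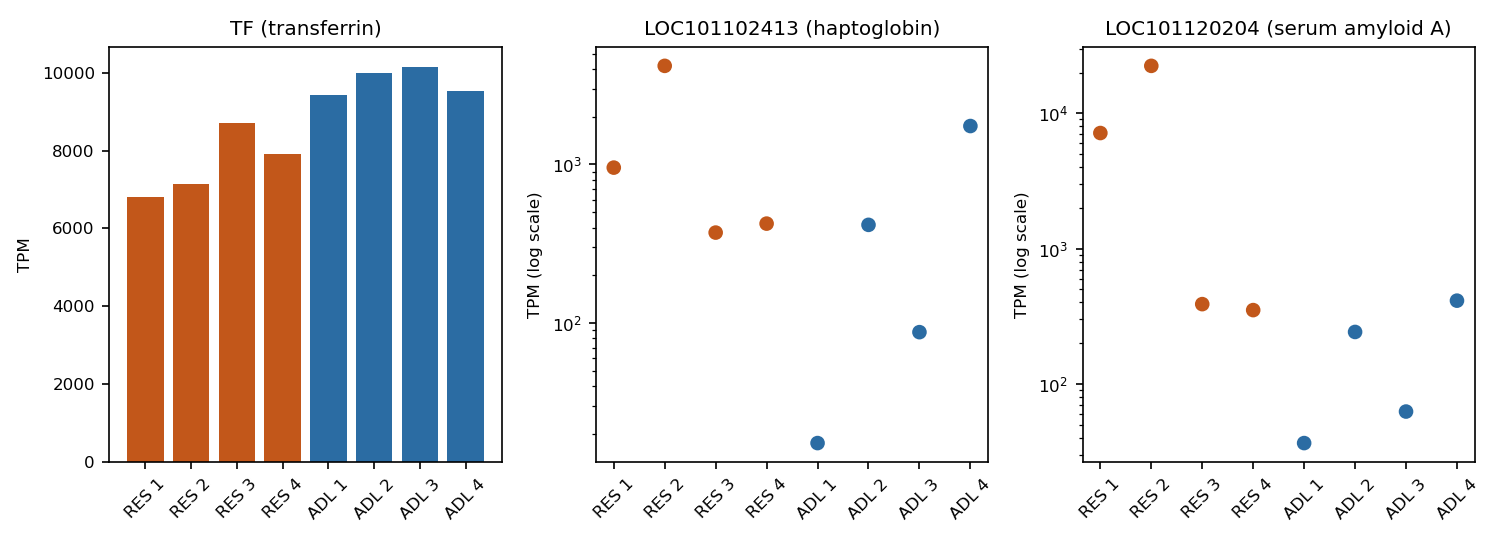
TPM of TF (bars from 0), haptoglobin and serum amyloid A (points, log axes) in each RES lamb (left, orange) and each ADL lamb (right, blue). RES lambs 1 and 2 have the lowest TF, at 6803 and 7145 TPM, and serum amyloid A at 7146 and 22407 TPM, against 36.6 to 412 TPM in ADL lambs.

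The carriers of haem and copper overlapped between the groups. HPX encodes hemopexin, the plasma protein that binds free haem. It stood at 2642, 4002, 3346 and 3815 TPM in RES lambs 1 to 4, against 2840, 4560, 3205 and 3906 TPM in ADL lambs 1 to 4. The groups overlapped, with a log2 difference of -0.07 ± 0.18 as deposited and -0.17 over size factors. Without RES lamb 1 it was 0.06 and without ADL lamb 2 it was 0.05, so its sign was not fixed. CP encodes ceruloplasmin, the copper enzyme that oxidises iron for loading onto transferrin and that is also an acute phase protein. It was at 910, 1167, 1292 and 1165 TPM in RES lambs 1 to 4, against 608, 1227, 567 and 806 TPM in ADL lambs 1 to 4. ADL lamb 2 lay among the RES lambs and the other 3 ADL lambs lay below all of them. CP averaged 1133 ± 160 TPM in RES lambs and 802 ± 302 TPM in ADL lambs (SD, n = 4 each), a log2 difference of 0.56 ± 0.23. On the size-factor scale the CP difference was 0.45, and the authors' deposited table gives a shrunken value of 0.28 with an adjusted p of 0.567. Without RES lambs 1 and 2, the lambs highest in serum amyloid A, the CP difference was 0.68 ± 0.30. The part of the acute phase in the CP difference was not tested.

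Transcripts of both transferrin receptors overlapped between the groups. TFR2 encodes the receptor that hepatocytes carry and that senses iron-loaded transferrin. It stood at 114, 139, 121 and 121 TPM in RES lambs 1 to 4 and at 137, 109, 157 and 120 TPM in ADL lambs 1 to 4, a log2 difference of -0.07 ± 0.12 as deposited and -0.17 over size factors, and 0.02 without ADL lamb 3. TFRC encodes the receptor through which most cells take up transferrin, and iron regulatory proteins protect its messenger RNA when iron is scarce. It stood at 102, 145, 135 and 100.0 TPM in RES lambs 1 to 4 and at 111, 131, 62.5 and 123 TPM in ADL lambs 1 to 4. ADL lamb 3 was the lowest and the other 7 lambs lay between 100.0 and 145 TPM. The log2 difference of TFRC was 0.21 ± 0.23 as deposited and 0.10 over size factors, and it was -0.03 without ADL lamb 3.

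Ferritin transcripts varied little between lambs. FTH1, the heavy chain that oxidises iron on entry into the shell, stood at 623, 533, 564 and 594 TPM in RES lambs 1 to 4 and at 639, 617, 577 and 625 TPM in ADL lambs 1 to 4. FTL, the light chain that helps the iron core form, stood at 1112, 1026, 1057 and 1225 TPM in RES lambs 1 to 4 and at 1144, 1094, 1387 and 1174 TPM in ADL lambs 1 to 4. In TPM as deposited both genes overlapped between the groups, with FTH1 highest in ADL lamb 1 and FTL highest in ADL lamb 3. Over size factors FTL still overlapped. FTH1 did not, with RES lambs lower, a pattern that 2.41% of all tested genes showed on that scale. The log2 difference was -0.09 ± 0.08 for FTH1 and -0.12 ± 0.11 for FTL as deposited, and -0.19 and -0.22 over size factors. ADL lamb 3 also held the lowest TFRC, and its ratio of FTH1 to FTL was 0.416, against 0.485 to 0.561 in RES lambs and 0.532 to 0.564 in the other 3 ADL lambs.

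The named ferritin genes held a minor part of the ferritin signal in this table. Rows described as ferritin heavy chain numbered 16, of which 11 were pseudogenes, and rows described as ferritin light chain numbered 30, of which 27 were pseudogenes. In each class 4 rows had a mean of at least 100 TPM. FTH1 took 17.9 to 18.9% of the heavy chain sum and FTL took 35.1 to 37.1% of the light chain sum in a lamb. The most abundant heavy chain row was LOC101105484 on chromosome 3, at 1995, 1672, 1786 and 1989 TPM in RES lambs 1 to 4 and 2074, 1957, 1883 and 2075 TPM in ADL lambs 1 to 4. How reads that match several near-identical ferritin rows were shared out is not stated in the labels or the table, so the split between rows is uncertain and the sums are the firmer quantity.

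**Figure D3:**
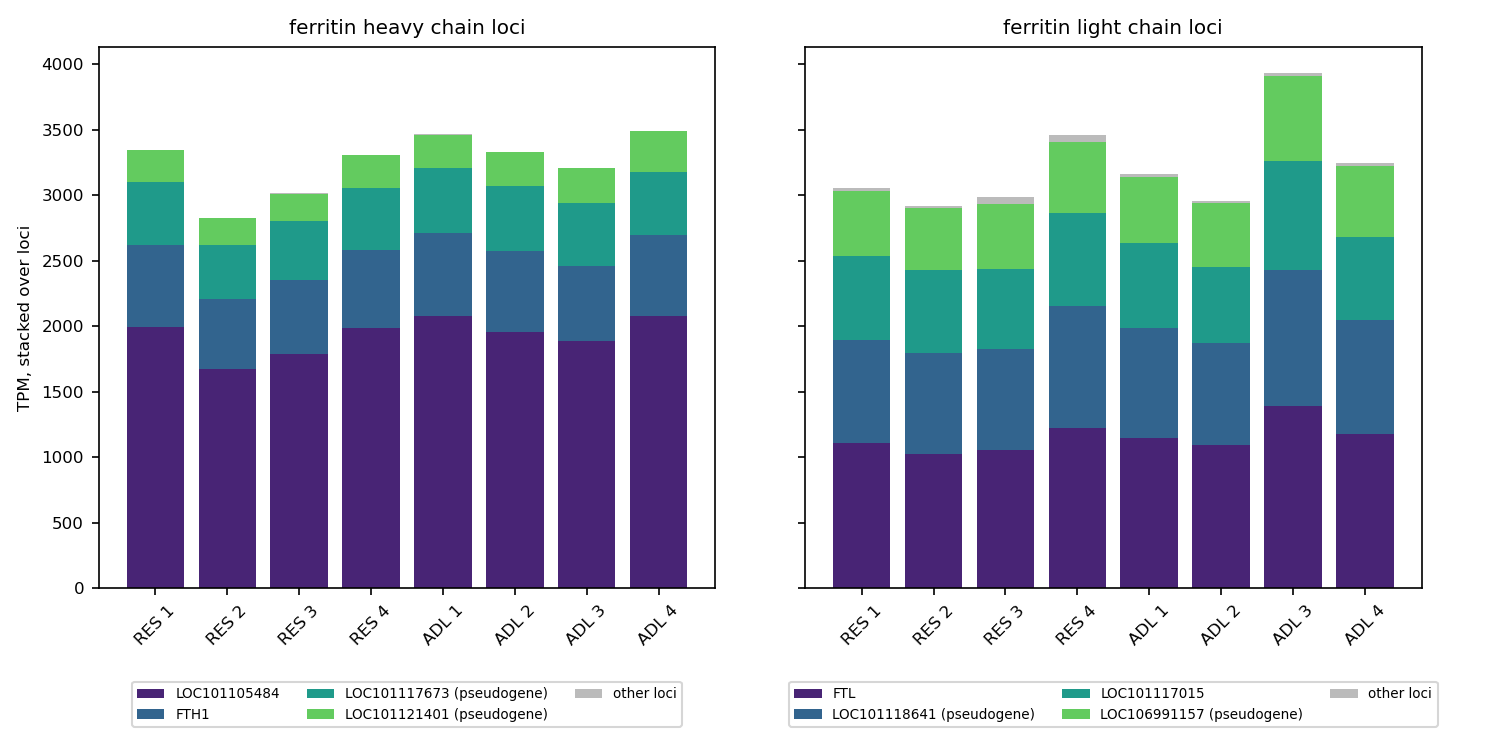
Stacked TPM of all rows described as ferritin heavy chain (left) or light chain (right) in RES lambs 1 to 4 and ADL lambs 1 to 4, with the rows of at least 100 TPM in colour. The heavy chain sum is 2824 to 3346 TPM in RES lambs and 3210 to 3490 TPM in ADL lambs, and FTH1 and FTL each make up less than the other rows of their class together.

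Heavy chain rows summed to 3122 ± 248 TPM in RES lambs and 3373 ± 130 TPM in ADL lambs (SD, n = 4 each), a log2 difference of -0.11 ± 0.06 (SE). Light chain rows summed to 3103 ± 243 TPM in RES lambs and 3323 ± 425 TPM in ADL lambs, a log2 difference of -0.09 ± 0.10 (SE). On both sums the groups overlapped in TPM as deposited. Over size factors the light chain sum still overlapped, and the heavy chain sum did not, with RES lambs lower. One heavy chain pseudogene, LOC101121401, did not overlap, at 201 to 252 TPM in RES lambs and 255 to 311 TPM in ADL lambs. That pattern, with RES lambs lower, held for 0.781% of all tested genes, and the row was singled out after its values were seen.

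SLC40A1, which encodes ferroportin, stood at 298, 269, 255 and 208 TPM in RES lambs 1 to 4 and at 275, 213, 255 and 229 TPM in ADL lambs 1 to 4. Values of the groups interleaved, and RES lambs held both the highest and the lowest. The log2 difference was 0.08 ± 0.13 as deposited and -0.03 over size factors, and without RES lambs 1 and 2 it was -0.07 ± 0.14, so its sign was not fixed.

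Hepcidin was the most variable of the 10 genes, and its spread lay within the groups. HAMP stood at 340, 484, 105 and 398 TPM in RES lambs 1 to 4, against 364, 62.4, 411 and 20.5 TPM in ADL lambs 1 to 4. In both groups some lambs lay near or above 340 TPM and others at or below 105 TPM: RES lamb 3 was low, as were ADL lambs 2 and 4. The highest lamb held 23.6 times the TPM of the lowest, against at most 2.31 times for the other genes of the 10. HAMP averaged 332 ± 162 TPM in RES lambs and 215 ± 202 TPM in ADL lambs (SD, n = 4 each), a log2 difference of 1.27 ± 0.93. The authors' deposited table gives it 0.06 shrunken and 0.50 unshrunken (log2, RES over ADL).

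BMP6, a ligand that in mice comes mainly from liver endothelial cells and drives hepcidin transcription, was scarce in whole liver. It stood at 0.677, 0.730, 0.454 and 0.789 TPM in RES lambs 1 to 4 and at 1.00, 0.588, 0.781 and 0.768 TPM in ADL lambs 1 to 4. Its mean lay below 1 TPM, so it was not tested, and it rested on 14 to 30 reads per lamb.

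**Figure D4:**
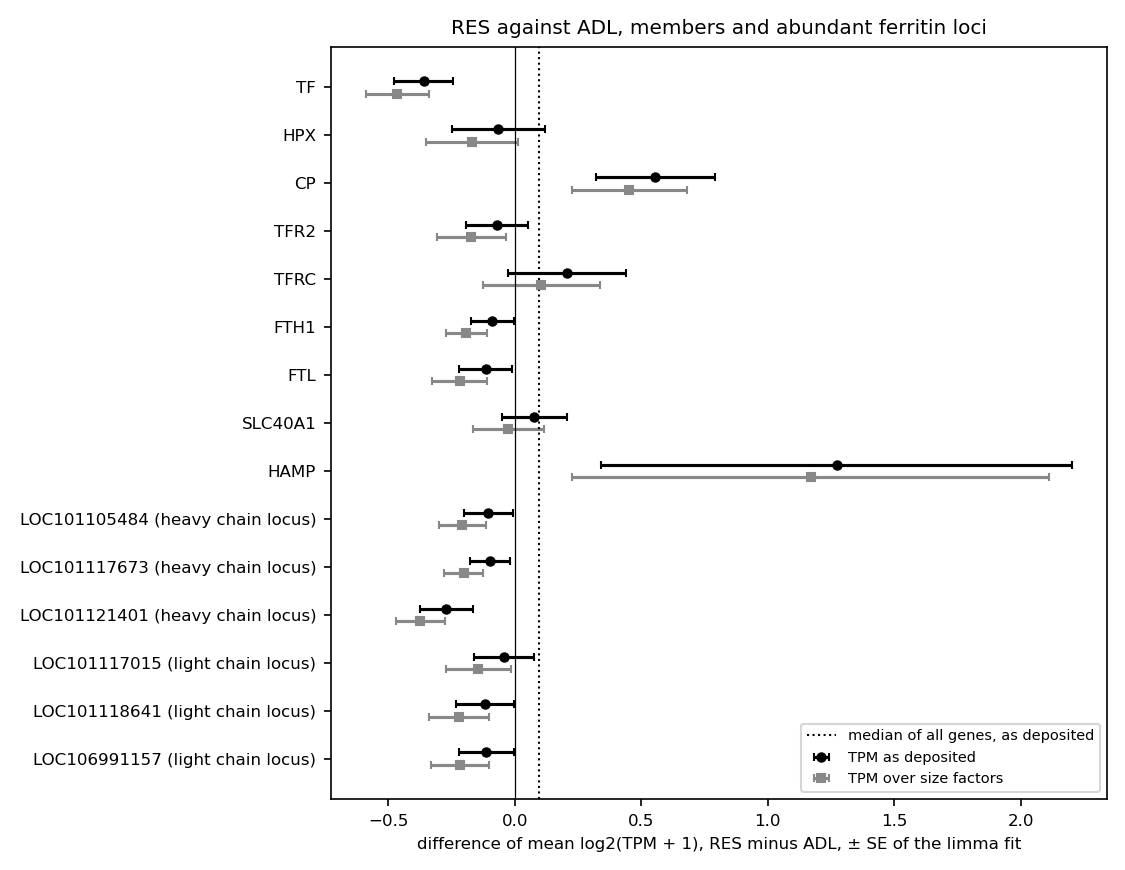
Difference of mean log2(TPM + 1), RES minus ADL, ± limma standard error for the 9 tested iron genes and 6 further ferritin rows, from TPM as deposited (black) and over size factors (grey), with the median of all genes dotted. TF lies at -0.36 and -0.46, CP at 0.56 and 0.45, and the ferritin rows lie below 0, while SLC40A1 changes sign between the scalings.

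Variation between single lambs was compared for 10 preset pairs of genes. A correlation over all lambs still holds any difference between the groups, so r is also given on deviations from the group means, and the pairs with TF, which was selected on that difference, are a description with no p. Pearson's r and Spearman's rho of log2(TPM + 1) were taken over the 8 lambs, each with an exact two-sided permutation test over all 40320 orders and Benjamini-Hochberg adjustment over the pairs. ID1, a target gene of bone morphogenetic protein signalling, was at 16.8, 8.83, 6.67 and 10.1 TPM in RES lambs 1 to 4 and at 7.44, 4.89, 14.3 and 3.15 TPM in ADL lambs 1 to 4. The 3 lambs low in HAMP were also the 3 lowest in ID1. HAMP and ID1 gave r = 0.85 (exact permutation p = 0.0044, adjusted p = 0.0441) and rho = 0.69 (exact permutation p = 0.0694, adjusted p = 0.321). Without ADL lambs 4 and 2, the lambs farthest from the median HAMP, r was 0.47, so the relation rested on those lambs. With any 1 lamb other than RES lamb 1 left out, the adjusted p of r lay between 0.0556 and 0.257. Deviations from the group means gave r = 0.82.

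HAMP and TFR2 gave r = 0.54 (0.70 on deviations from the group means) and rho = 0.83 (exact permutation p = 0.0154, adjusted p = 0.154 for rho). HAMP and BMP6 gave r = 0.36 (0.64 on those deviations). HAMP and SMAD7, which encodes an inhibitor in the same pathway, gave r = 0.53 (0.38 on those deviations). The r of HAMP and SMAD7 became -0.71 without ADL lambs 4 and 2. HAMP and haptoglobin (LOC101102413), the acute phase protein that binds haemoglobin, gave r = -0.27 (-0.60 on those deviations). For HAMP and haptoglobin r was 0.63 within RES lambs and -0.93 within ADL lambs, so its sign differed between the groups. Haptoglobin was at 954, 4179, 372 and 423 TPM in RES lambs 1 to 4 and at 17.5, 416, 87.6 and 1745 TPM in ADL lambs 1 to 4. TF and albumin gave r = 0.72, which was 0.40 on deviations from the group means and 0.24 without RES lambs 1 and 2. TF and HPX gave r = 0.25 (0.28 on those deviations), and FTH1 and FTL 0.20 (-0.05 on them). TFRC and FTH1 gave -0.13 (0.03 on those deviations), and TFRC and SLC40A1 -0.09 (-0.16 on them). Of the 10 pairs, 1 passed an adjusted p of 0.05 on r and 0 on rho, where 1 had an unadjusted exact permutation p under 0.05.

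**Figure D5:**
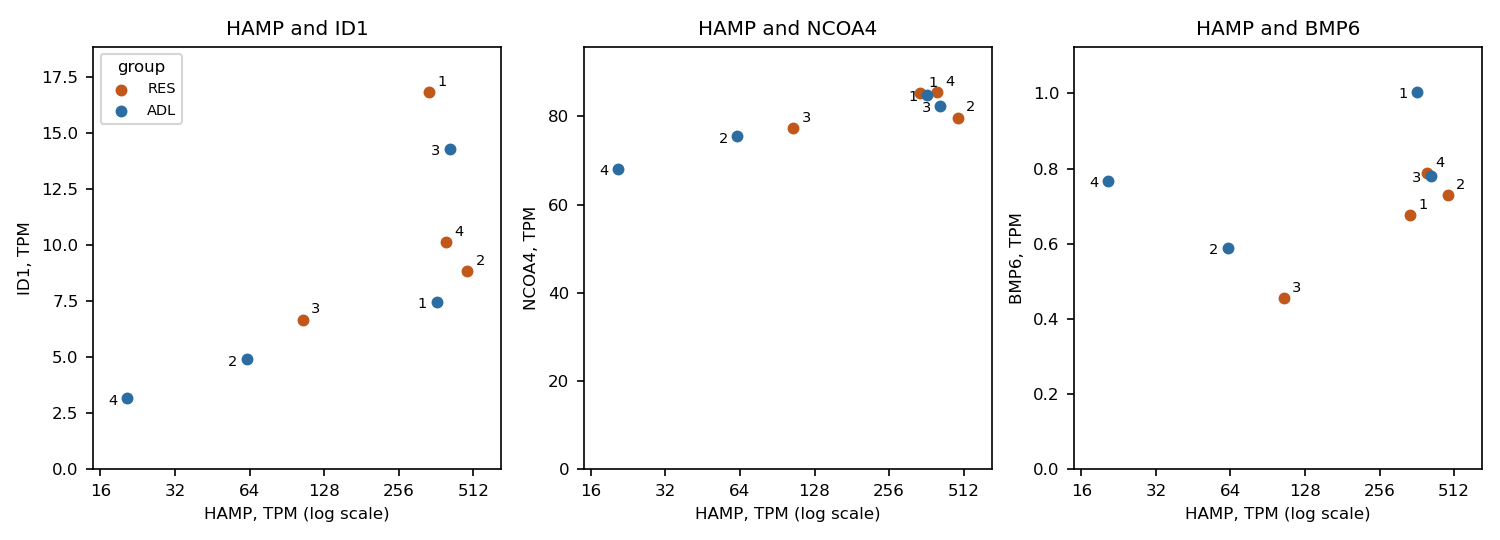
TPM of ID1, NCOA4 and BMP6 (linear axes from 0) against TPM of HAMP (log axis), with RES lambs in orange and ADL lambs in blue, each point labelled with its lamb number. RES lamb 3 and ADL lambs 2 and 4, at 20.5 to 105 TPM of HAMP, are the 3 lowest in ID1 and in NCOA4 but not in BMP6.

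Among the 6378 genes averaging 10 TPM or more, those whose log2 values followed HAMP most closely over the 8 lambs were LOC101123533, a putative ribosomal protein L37a (r = 0.93), NCOA4 (0.92), LOC105608205 (0.90), FZD8 (0.90) and RGAG4 (0.90), and on deviations from the group means these 5 lay between 0.88 and 0.95. NCOA4 encodes the receptor that carries ferritin to the lysosome for breakdown. It was at 85.2, 79.7, 77.4 and 85.5 TPM in RES lambs 1 to 4 and at 84.9, 75.5, 82.4 and 68.1 TPM in ADL lambs 1 to 4, a far narrower range than that of HAMP. The closest to TF were RABAC1 (r = 0.94), ABCA10 (0.92), SERPINF2 (0.91), ACSM3 (0.88) and DPYS (0.86), values that hold the lower TF of RES lambs. On deviations from the group means they were 0.80 for RABAC1, 0.78 for ABCA10, 0.86 for SERPINF2, 0.60 for ACSM3 and 0.64 for DPYS. SERPINF2, a plasma inhibitor of plasmin made by hepatocytes, averaged 761 ± 68.8 TPM in RES lambs and 852 ± 26.6 TPM in ADL lambs (SD, n = 4 each). These 10 genes were picked as the highest of many, so their r values are a description.

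A list of 91 other genes of iron and haem handling was set beside the 10. ERFE was not matched, 90 were found and 80 had a mean of at least 1 TPM. Of these, 57 had a positive and 23 a negative log2 difference (RES minus ADL), with a median of 0.10 beside 0.09 for all tested genes. At an unadjusted limma p under 0.05 there were 9 higher and 1 lower, 12.5% of the list beside 11.9% of all genes, and 0 passed the adjusted p. That count of 10 was 4 without RES lamb 3, 5 without ADL lamb 3, and 6 without RES lamb 2, RES lamb 4 or ADL lamb 1. Groups did not overlap for 7 of the 80, beside 7.39% of all tested genes. Over size factors the split was 40 to 40 with a median of -0.0028. At that unadjusted p 1 gene of the 80 was higher and 4 lower, beside 3.40% of all tested genes higher and 4.25% lower.

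Iron uptake genes outside the 10 were 4 higher and 2 lower of 6 tested, and 3 higher and 3 lower over size factors. SLC39A14, a metal transporter that brings iron not bound to transferrin into hepatocytes, was at 241, 323, 294 and 369 TPM in RES lambs 1 to 4 and at 225, 241, 251 and 256 TPM in ADL lambs 1 to 4. RES lamb 1 lay within the ADL range and the other 3 RES lambs lay above it; the log2 difference was 0.32 ± 0.13 (limma adjusted p = 0.411). SLC11A2 (LOC101115614), the transporter that moves iron out of endosomes, averaged 5.65 ± 0.366 TPM in RES lambs and 5.15 ± 1.05 TPM in ADL lambs. The iron chaperone PCBP1 averaged 169 ± 12.7 TPM in RES lambs and 158 ± 8.65 TPM in ADL lambs. Its log2 difference of 0.09 became -0.0157 over size factors, and that of NCOA4, 0.08, became -0.0228. FTMT, the mitochondrial ferritin, was listed at 0 in all 8 lambs.

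Of the iron regulatory proteins, which bind messenger RNAs of ferritin and TFRC, IREB2 was at 37.3, 35.1, 30.1 and 35.8 TPM in RES lambs 1 to 4 and at 25.1, 29.3, 26.2 and 28.2 TPM in ADL lambs 1 to 4. In TPM as deposited all RES lambs lay above all ADL lambs, which held for 6.61% of all tested genes in that direction. Over size factors RES lamb 3 fell just below ADL lamb 2, so the groups overlapped. The log2 difference of IREB2 was 0.34 ± 0.09 as deposited and 0.23 over size factors, with a limma adjusted p of 0.395. ACO1, the other protein of the pair, averaged 83.5 ± 2.75 TPM in RES lambs and 87.3 ± 7.16 TPM in ADL lambs, a log2 difference of -0.06 ± 0.08 as deposited and -0.16 over size factors.

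Among receptors and ligands of hepcidin control, 10 were higher and 4 lower of 14 tested, and 7 higher and 7 lower over size factors. BMPR2, a receptor for bone morphogenetic proteins, was at 14.8, 18.4, 20.4 and 25.2 TPM in RES lambs 1 to 4 and at 13.7, 17.7, 12.6 and 14.5 TPM in ADL lambs 1 to 4, a log2 difference of 0.39 ± 0.16 as deposited and 0.29 over size factors. IL6ST, the signalling subunit of the interleukin 6 receptor, was at 121 to 141 TPM in RES lambs and 108 to 115 TPM in ADL lambs, a log2 difference of 0.20 ± 0.08 as deposited and 0.10 over size factors. Their limma adjusted p values were 0.411 for BMPR2 and 0.409 for IL6ST, so neither passed. Of SMAD and STAT3 factors and targets 9 were higher and 1 lower of 10 tested, and 7 higher and 3 lower over size factors. At an unadjusted limma p under 0.05 there was 1 higher and 0 lower as deposited, and 0 higher and 1 lower over size factors. Of all tested genes, 10.4% were higher and 1.50% lower at that p as deposited. Over size factors these shares were 3.40% and 4.25%. Beside the sign counts, all tested genes leaned higher in RES lambs as deposited, with a median log2 difference of 0.09, against 0.0056 over size factors. STAT3, which carries the interleukin 6 signal to the HAMP promoter, was at 46.8 to 56.2 TPM in RES lambs and 40.5 to 45.1 TPM in ADL lambs. Its log2 difference was 0.23 ± 0.08 as deposited and 0.13 over size factors, with a limma adjusted p of 0.395. SMAD7 averaged 4.95 ± 0.764 TPM in RES lambs and 3.92 ± 0.706 TPM in ADL lambs, on 25 to 44 reads per lamb.

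Haem synthesis genes were split, with 4 higher and 4 lower of 8, and 3 higher and 5 lower over size factors. CPOX, which acts late in the pathway, averaged 64.0 ± 10.5 TPM in RES lambs and 55.7 ± 3.90 TPM in ADL lambs, and FECH, which inserts iron into the ring, averaged 43.6 ± 4.36 TPM in RES lambs and 46.0 ± 1.23 TPM in ADL lambs. Of 13 genes of haem transport and breakdown 8 were higher and 5 lower, and 7 higher and 6 lower over size factors. HEBP1, a haem-binding protein, was at 73.3, 99.3, 95.8 and 90.8 TPM in RES lambs 1 to 4 and at 99.5, 112, 118 and 108 TPM in ADL lambs 1 to 4. Its groups did not overlap, although RES lamb 2 and ADL lamb 1 nearly met. In TPM, 0.781% of all tested genes had all RES lambs below all ADL lambs. The log2 difference of HEBP1 was -0.29 ± 0.11 (limma adjusted p = 0.400). SLC48A1, a haem transporter of endosomes and lysosomes, was at 18.8 to 23.7 TPM in RES lambs and 14.5 to 18.7 TPM in ADL lambs. All RES lambs lay above all ADL lambs in TPM for 6.61% of all tested genes. The log2 difference of SLC48A1 was 0.30 ± 0.12 as deposited and 0.20 over size factors (limma adjusted p = 0.407 as deposited).

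Mitochondrial iron and iron-sulphur genes numbered 23, all tested, with 17 higher and 6 lower, and 12 higher and 11 lower over size factors. SLC25A37, mitoferrin, which brings iron into mitochondria, was at 17.8 to 25.0 TPM in RES lambs and 16.7 to 19.6 TPM in ADL lambs. Its log2 difference was 0.30 ± 0.12 as deposited and 0.20 over size factors (limma adjusted p = 0.409 as deposited).

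Marker lists for the cells of a liver piece were summed beside these values. Hepatocyte markers, 9 of 9 tested with 2 higher and 7 lower, summed to 138801 to 179987 TPM in RES lambs and 172145 to 199210 TPM in ADL lambs. Kupffer cell and macrophage markers, 10 of 11 tested with 2 higher and 8 lower, summed to 917 to 1482 TPM in RES lambs and 1025 to 1272 TPM in ADL lambs. Over size factors the hepatocyte markers were again 2 higher and 7 lower, and the Kupffer cell and macrophage markers 0 higher and 10 lower. Red blood cell markers, 9 of 10 found and 2 tested, summed to 4.56 to 43.7 TPM in RES lambs and 23.1 to 92.3 TPM in ADL lambs. Liver endothelial markers summed to 205 to 225 TPM in RES lambs and 191 to 212 TPM in ADL lambs, and stellate, lymphocyte and bile duct sums also overlapped between the groups. None of the markers found was at 0 in all lambs. The part of cell composition in the iron gene differences was not tested.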

How the data were processed

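Per the labels' protocols, poly(A) RNA of 8 lamb livers was sequenced as paired reads. In the submitters' processing notes the authors list DESeq2 1.12.4 and bcl2fastq 1.8.4. The aligner, counter, strand setting and build were not given in the sources used here. The authors deposited 1 table with TPM per lamb. Per the file headers it also holds the authors' DESeq2 results: the mean of normalized counts (a signal), log2 fold changes with a standard error, the Wald statistic (a score), and p-values with adjusted p-values. TPM is a share, so abundant genes that take less raise all others.

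TPM times the deposited gene length, divided by the smallest such product above 0 in that lamb (taken as 1 read), came out whole for 100% of values within 0.001 reads. Groups were taken from sample titles. The 13437 genes averaging 1 TPM or more were compared on log2(TPM + 1) with limma 3.58.1 (lmFit, eBayes with a trend) in R 4.3.3, RES minus ADL, two-sided, with Benjamini-Hochberg adjustment over all genes and a threshold of 0.05. Standard errors marked SE come from the spread of log2 values in each group; the others are limma's. Correlations used Python 3.11.15. The scripts were tested on simulated data.

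Members and gene lists were chosen with earlier results of these data known. Named outside the 10 genes were the 2 measured genes with the smallest unadjusted limma p in each group of the iron and haem list, the 5 genes most correlated with TF and with HAMP, marker genes at 0 and the genes of the 10 pairs; ferritin rows, LOC101117129, acute phase and cell markers were named after their values were seen. One gene that this rule names is not reported here. Of 175 list symbols 170 were found. Alternatives were size factors, quantile normalization, pseudocounts of 0.1 and 5, no filter, a mean of at least 5 TPM, limma's voom on recovered reads, the lamb number as a block and each lamb left out. Ferritin sums, ratios to albumin and to hepatocyte markers, a TPM total without albumin and mitochondrial genes, and leaving out RES lambs 1 and 2 were chosen after seeing the data.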

Additional observations from a re-analysis of the deposited data

Results flagged for a closer look

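Of 120 groups of 4 lambs checked gene by gene, 3 held a lamb that stood apart from the other 3 by Dixon's criterion, where chance gives about 1 group in 20. Haptoglobin (LOC101102413) stood at 4179 TPM in RES lamb 2, against 372 to 954 TPM in the other RES lambs. The ferritin light chain pseudogene LOC101118641 stood at 926 TPM in RES lamb 4, against 768 to 783 TPM in the other RES lambs. ACSM3, a fatty acid activating enzyme and one of the genes that followed TF most closely, stood at 679 TPM in RES lamb 3, against 572 to 586 TPM in the other RES lambs. None of the 10 iron genes had such a lamb in either group.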

How the results depend on the processing

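Genes past the limma adjusted p numbered 0, and 1 without the filter on low values. Those at an unadjusted p under 0.05 numbered 1594, against 1028 over size factors, 1014 after quantile normalization and 1047 with voom. Of the 10 iron genes, 2 lay under that p, against 1 after quantile normalization, 0 without the filter and 0 without RES lambs 1 and 2. Of the iron and haem list 10 did, against 5 over size factors, 5 after quantile normalization and 5 with voom. Correlated pairs past the adjusted p numbered 1, against 2 over size factors and 0 with a pseudocount of 5. The pair added over size factors was TF with albumin (r = 0.81). It holds the difference between groups on which TF was selected, so nothing is read from its passing. Each lamb left out in turn gave 0 to 1, 935 to 1687, 1 to 2, 4 to 11 and 0 to 1 for these 5 counts, lowest for all genes without ADL lamb 3; HAMP with ID1 kept r between 0.72 and 0.91 and, of these 8 fits, passed the adjusted p in the one without RES lamb 1. Sign turned for PCBP1 (-0.0157 over size factors, -0.0212 with voom), NCOA4 (-0.0228 over size factors, -0.00927 after quantile normalization, -0.0297 with voom) and the correlation of TFRC with FTH1 (0.0489 after quantile normalization). It also turned for SLC40A1 (-0.0255 over size factors, -0.0321 with voom). The median of the iron and haem list turned to -0.0028 over size factors, -0.0106 after quantile normalization and -0.0088 with voom. Left-out lambs gave r of -0.63 to 0.27 for TFRC with FTH1, -0.214 to 0.0481 for TFRC with SLC40A1, -0.24 to 0.64 for FTH1 with FTL and -0.20 to 0.48 for TF with HPX. Signs also turned with a lamb left out for HPX (-0.18 to 0.06), TFR2 (-0.15 to 0.02) and TFRC (-0.03 to 0.32). TF ranged from -0.43 to -0.31, CP from 0.41 to 0.78 and HAMP from 0.45 to 1.87 with each lamb left out. The cause of these changes was not tested. Lamb numbers were shared between groups. Deviations from the group means gave same-numbered lambs r of 0.15, -0.12, 0.05 and 0.06, beside -0.14 to 0.08 for lambs of different numbers. These values cannot show whether the design paired the lambs, because a pairing need not leave a shared deviation over all genes. With the number as a block the counts were 0, 1514, 2 and 7. Quantile normalization gave no value for TF with albumin. HAMP in ADL lamb 4 rested on 42 reads and BMP6 on at most 30, so depth limits both.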

Other observations

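A ferritin light chain pseudogene on chromosome 15, LOC105613425, stood at 3.30, 2.62, 37.5 and 38.5 TPM in RES lambs 1 to 4 and at 2.16 to 4.03 TPM in ADL lambs. RES lambs 3 and 4 were thus far above the other 6 lambs at this row, while FTL itself stood at 1057 and 1225 TPM in those lambs. MARCO, a scavenger receptor of macrophages, stood at 166, 8.33, 16.6 and 61.6 TPM in RES lambs 1 to 4 and at 54.6 to 138 TPM in ADL lambs, whereas the haemoglobin scavenger receptor CD163 (LOC105612575) stood at 136 to 193 TPM in RES lambs and 153 to 161 TPM in ADL lambs. HMOX1, the enzyme that opens the haem ring and frees its iron, stood at 68.5, 71.2, 28.5 and 37.7 TPM in RES lambs 1 to 4 and at 103, 36.6, 59.8 and 51.3 TPM in ADL lambs 1 to 4. A second serum amyloid A row, LOC105601867, stood at 3674, 11128, 643 and 763 TPM in RES lambs 1 to 4 and at 68.8 to 1541 TPM in ADL lambs, again highest in RES lambs 1 and 2.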
